A study of Penicillium oxalicum with 6 samples.

Results

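PDE_01779, whose best protein match is a class V chitinase of Penicillium digitatum, and PDE_04898, whose best match is an endochitinase of Thermoascus aurantiacus var. levisporus, were examined in mycelia of the filamentous fungus Penicillium oxalicum grown on glucose. They are 2 of 10 rows whose best match names a chitinase, in a table of 8902 gene rows. The pair was chosen by its tag counts in these same libraries, few in a strain without mtr23B and many in strains with it, so that contrast is described here for them and not tested. The other 8 rows, and 3 further rows that carry chitinase activity only as a Gene Ontology term, stand beside them.

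Chitin is a polymer of N-acetylglucosamine and a load-bearing part of the fungal cell wall. Chitinases cut it, both where the organism remodels its own wall during growth, branching and spore formation and where old hyphae dissolve themselves. In Aspergillus nidulans the class V enzyme ChiB is known for its part in autolysis and the class III enzyme ChiA for its place at germ tubes and hyphal tips. Beta-N-acetylhexosaminidase then releases the single sugar, which cells phosphorylate, deacetylate and deaminate for use in glycolysis, while chitin synthases build new chitin from UDP-N-acetylglucosamine.

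The 3 strains were M12, a uracil-requiring derivative of wild type 114-2 that carries pyrGQ226* and serves here as the parent, Dmtr23B, the deletion strain from which the putative methyltransferase gene mtr23B was removed, and Rmtr23B, the complemented strain that received it back. The pyrG allele of the other two strains is not stated in the labels. Conidia were grown for 20 h in 2% glucose Vogel's medium at 30 °C, and the mycelia then spent 24 h in fresh medium, again with 2% glucose. Each strain gave 1 library of digital gene expression tags, so no difference below has a replicate check, and intervals cover counting error only. The tags assigned to gene rows numbered 2013784 to 2147854 a library, 60.1% to 63.9% of the library totals. No row of the table is named mtr23B in its description, so the deletion itself was not checked here. Values for the cellulose and wheat bran medium were not used, because they did not follow the identifiers: over 8902 rows the rank correlation between libraries was 0.836 to 0.945 within a medium and -0.009 to 0.002 between media.

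PDE_01779 was counted 184 times in M12, 3 times in Dmtr23B and 1294 times in Rmtr23B. In tags per 1000000 of the library total (TPM, with no division by gene length) this was 54.8 TPM in M12 (95% exact interval 47.1 to 63.3), 0.895 TPM in Dmtr23B (0.185 to 2.62) and 385 TPM in Rmtr23B (364 to 407). The order from high to low was Rmtr23B, M12, Dmtr23B. M12 exceeded Dmtr23B 61.2-fold (20.6 to 299), a range set by the 3 tags of Dmtr23B. Rmtr23B exceeded Dmtr23B 430-fold (147 to 2089). In a culture, fewer cells that transcribe a gene and less RNA in each cell cannot be told apart.

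Rmtr23B did not return PDE_01779 to the M12 level but stood 7.03-fold above it (6.02 to 8.25). Of 5226 genes with at least 10 TPM in one of these libraries, 236, or 4.52%, were at least 2-fold higher in Rmtr23B than in M12 on the TPM + 1 scale. By TPM the gene ranked 1603 of 8902 rows in M12, 196 in Rmtr23B and 7715 in Dmtr23B, ranks that are not per length.

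PDE_04898 was counted 1153 times in M12, 166 times in Dmtr23B and 1477 times in Rmtr23B. Its levels were 343 TPM (324 to 364), 49.5 TPM (42.3 to 57.7) and 440 TPM (417 to 463) in that order. In Dmtr23B the level rested on 166 tags, not on a handful. M12 exceeded Dmtr23B 6.93-fold (5.88 to 8.20), and Rmtr23B exceeded it 8.88-fold (7.55 to 10.5). By library totals Rmtr23B stood 1.28-fold above M12 (1.19 to 1.38). On that scale this endochitinase row came back near the M12 level, while the class V row overshot it. TMM scaling, which takes M12 as 3249284 tags and Rmtr23B as 2918532, raises the ratio of Rmtr23B to M12. PDE_04898 ranked 255, 2001 and 174 of 8902 rows in M12, Dmtr23B and Rmtr23B.

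A gene is called apart in Dmtr23B here when it is at least 2-fold above both, or 2-fold below both, of the other strains on the TPM + 1 scale and reaches 10 TPM in any library. Both members are lower by this rule, as are 7.82% of the 5756 genes that reach 10 TPM, and both pass edgeR's quasi-likelihood test of Dmtr23B against the other 2 libraries, as do 3.39% of genes in the lower direction. These calls belong to the contrast that chose the pair and carry no support. Ranked by the smaller of its 2 differences, PDE_01779 was number 36 from the bottom of 5756 genes (-4.88, log2 of TPM + 1) and PDE_04898 number 160 (-2.77).

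**Figure D1:**
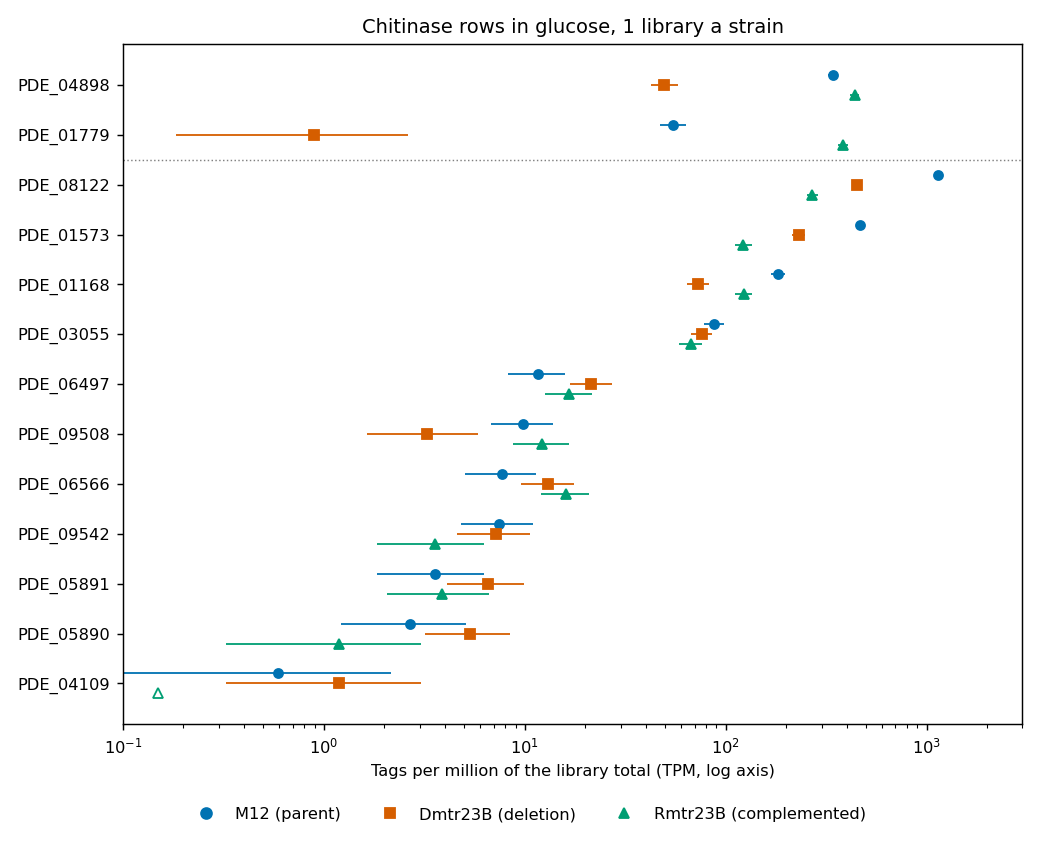
Level of each chitinase row in the 3 glucose libraries, in TPM on a log axis, with exact 95% counting intervals. The 2 rows above the dotted line are PDE_04898 and PDE_01779, whose Dmtr23B squares lie at 49.5 and 0.895 TPM, left of the other 2 symbols; the open triangle marks a count of 0 drawn near the left edge, and the interval of PDE_04109 in M12 runs past the axis.

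Most of the other chitinase rows were not apart in Dmtr23B. Of the 8 other rows named as chitinases, 5 reached 10 TPM in any library, and 1 of these 5 was apart in Dmtr23B, on the lower side, beside 7.82% of all 5756 genes on that side and 18.6% on either. In edgeR none of the 5 passed with Benjamini-Hochberg adjustment, beside 4.71% of all genes. An unadjusted edgeR p under 0.05 was found in 2 of the 5, beside 995 of all 5756 genes. DESeq2 called 0 of the 5, beside 401 of 5756. The median difference between Dmtr23B and the mean of the other strains was -0.30 (log2 of TPM + 1) for these 5 rows and 0.38 for all genes. Against M12 alone the medians were -1.31 and 0.30, and against Rmtr23B alone -0.27 and 0.46. The 1 row apart was PDE_09508, a class III chitinase match, with 33 tags in M12, 11 in Dmtr23B and 41 in Rmtr23B. M12 exceeded Dmtr23B 2.99-fold (1.48 to 6.56) and Rmtr23B exceeded it 3.72-fold (1.88 to 8.02), so both intervals reach under 2-fold, and the edgeR adjusted p was 0.196.

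The most abundant chitinase row in M12, PDE_08122, stood at 1146 TPM there, at 453 TPM in Dmtr23B and at 270 TPM in Rmtr23B. PDE_01573, matched to a class V endochitinase precursor, followed the same order with 466, 231 and 122 TPM. In both, Dmtr23B lay between the other two, and the lowest library was Rmtr23B, where each member was highest. M12 exceeded Rmtr23B 4.24-fold in PDE_08122 (3.95 to 4.57) and 3.81-fold in PDE_01573 (3.42 to 4.26). Neither passed the edgeR test of Dmtr23B (adjusted p 0.654 and 0.737).

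PDE_01168, matched to the class III chitinase ChiA2 of Aspergillus fumigatus, stood at 182, 73.1 and 123 TPM in M12, Dmtr23B and Rmtr23B. It was lowest in Dmtr23B, 2.50-fold under M12 (2.15 to 2.91) and 1.68-fold under Rmtr23B (1.43 to 1.98), with an edgeR adjusted p of 0.240. Scaled by TMM or by median-ratio size factors it also counts as apart, which makes 2 of 5 rows. The share over all genes was not computed under these scalings. With Rmtr23B left out, 3 of the 4 rows that reach 10 TPM were 2-fold lower in Dmtr23B than in M12, beside 10.2% of 5599 genes: PDE_01168, PDE_01573 and PDE_08122.

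The remaining named rows were low. The class V match PDE_06566 had 26, 44 and 54 tags in M12, Dmtr23B and Rmtr23B, and its Dmtr23B and Rmtr23B libraries could not be separated at this depth (Rmtr23B over Dmtr23B 1.22, 0.807 to 1.87). The class V matches PDE_05890 and PDE_04109 and the class III match PDE_09542 stayed under 10 TPM in every library, with at most 25 tags. PDE_04109 had 2, 4 and 0 tags, and 0 tags allow up to 0.893 TPM at a floor of 3 tags, or 1.10 TPM by the upper end of the exact 95% interval. Among the 3 rows with chitinase activity only in Gene Ontology, PDE_03055 stood at 87.5, 76.1 and 67.3 TPM, PDE_06497 at 11.6, 21.5 and 16.7 TPM, and PDE_05891 had 12, 22 and 13 tags. None of these 3 was apart in Dmtr23B.

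**Figure D2:**
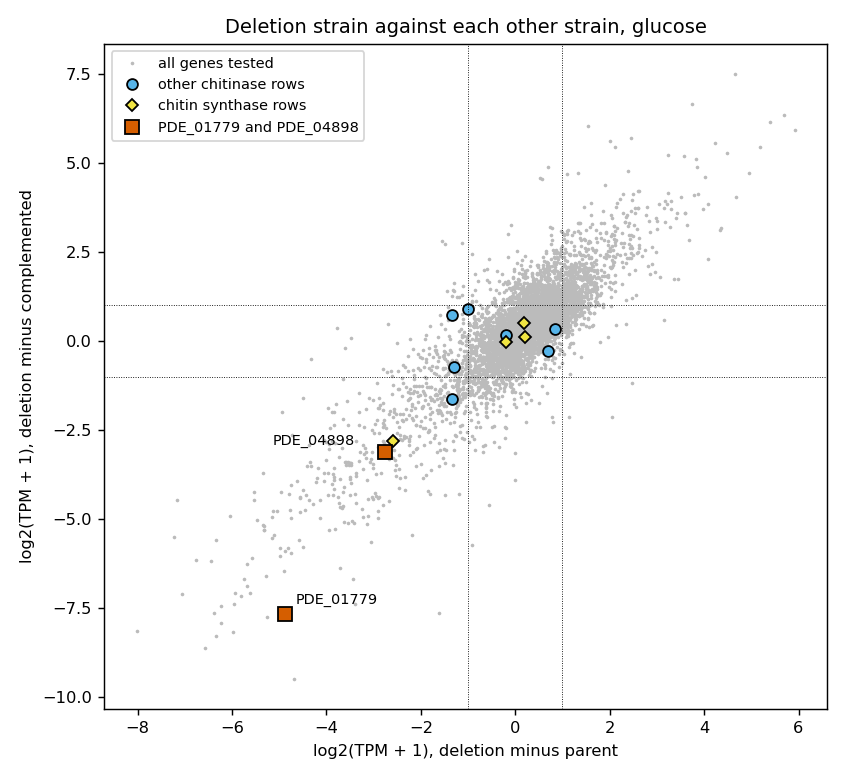
Difference of Dmtr23B from M12 (horizontal) and from Rmtr23B (vertical), in log2 of TPM + 1, for the 5756 genes that reach 10 TPM; dotted lines mark 2-fold. The 2 members (squares) and 1 chitin synthase row (diamond) lie in the lower left, and the other chitinase and synthase rows lie nearer the centre; both axes share the Dmtr23B library.

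Summed over the 10 named rows, chitinase tags came to 2221 TPM in M12 (2170 to 2271), 837 TPM in Dmtr23B (806 to 869) and 1373 TPM in Rmtr23B (1334 to 1413). PDE_01779 and PDE_04898 supplied 2.47% and 15.5% of it in M12, 0.107% and 5.92% in Dmtr23B, and 28.1% and 32.0% in Rmtr23B. PDE_08122 supplied 51.6% in M12, 54.1% in Dmtr23B and 19.7% in Rmtr23B. The other 8 rows alone summed to 1823, 787 and 548 TPM, so by library totals Rmtr23B was the lowest of the 3 without the members. These sums rested on 2636 tags in Dmtr23B and 1842 in Rmtr23B. TMM scaling takes Dmtr23B as 3988866 tags and Rmtr23B as 2918532, which narrows the gap between these libraries. The intervals of the sums were not computed on that scale, so the order of Dmtr23B and Rmtr23B is given for library totals only.

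**Figure D3:**
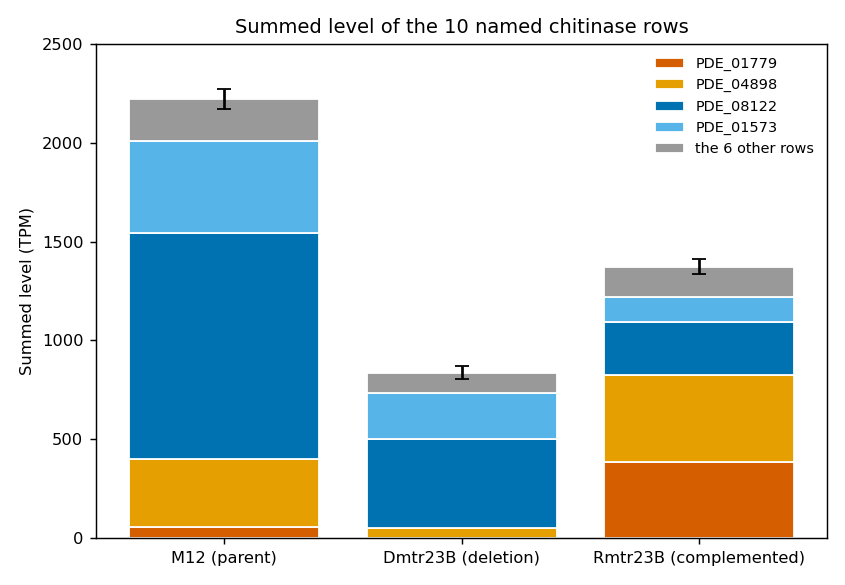
Summed level of the 10 rows named as chitinases in each glucose library, in TPM, stacked by row, with the exact 95% counting interval of the sum. The members' share (bottom layers) is largest in Rmtr23B and smallest in Dmtr23B, where PDE_01779 is too thin to see.

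The genes beside the members in locus number were compared next, with number order standing in for position. Around PDE_01779 the neighbours PDE_01777, annotated with pantothenate kinase activity, and PDE_01778, a match to PIG-C, a subunit of the enzyme that starts GPI anchor synthesis, stood at 7.14, 10.4 and 3.87 TPM and at 23.5, 34.6 and 18.5 TPM in M12, Dmtr23B and Rmtr23B. Neither was apart. PDE_01780, annotated with succinate-semialdehyde dehydrogenase activity, stood at 46.4, 10.1 and 29.2 TPM and was apart on the lower side, with an edgeR adjusted p of 0.0623 and a DESeq2 adjusted p of 0.0454. No row carries the numbers PDE_01776, PDE_01781 or PDE_01782, so these have no values here.

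Around PDE_04898 no neighbour was apart. PDE_04897, a ubiquitin and ribosomal protein fusion, stood at 798, 973 and 876 TPM, and PDE_04900, annotated with the threonine peptidase activity of proteasome subunits, at 320, 464 and 259 TPM. PDE_04896 stood at 19.3, 20.6 and 7.74 TPM. PDE_04895, PDE_04899 and PDE_04901 stayed under 10 TPM. The low level of PDE_04898 in Dmtr23B thus stood alone among its measured neighbours, whereas PDE_01780 beside PDE_01779 was also low there.

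**Figure D4:**
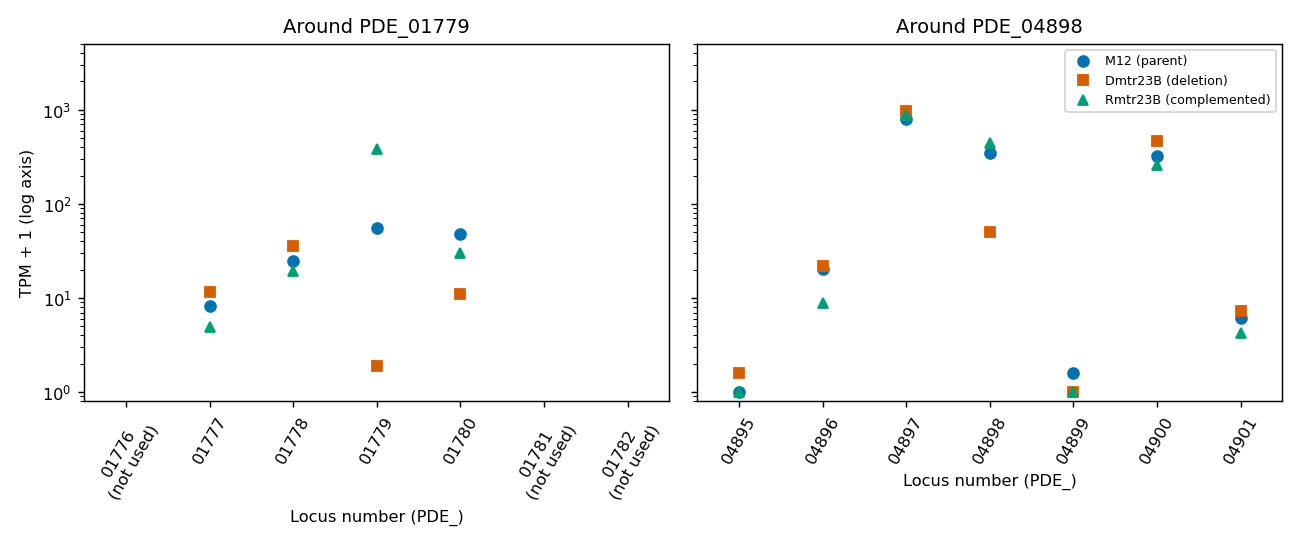
TPM + 1 on a log axis for the locus numbers around each member in the 3 glucose libraries. Dmtr23B squares drop at PDE_01779, PDE_01780 and PDE_04898 and at no other number shown is Dmtr23B at least 2-fold below both other strains.

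Genes with the most similar profile were sought by the Euclidean distance of log2 of TPM + 1, centred over the 3 libraries, among the 5755 other genes that reach 10 TPM; with 3 libraries, many genes can lie close by. Those nearest PDE_01779 were PDE_05065 (163, 3.28 and 918 TPM in M12, Dmtr23B and Rmtr23B; distance 0.288), PDE_09241, PDE_04411, PDE_09231 and PDE_09233, at distances up to 1.02. All share an Rmtr23B level above M12, which follows from their choice by likeness to PDE_01779. PDE_09231, PDE_09233 and PDE_09241 have close locus numbers. None of the 5 is described as an enzyme of chitin.

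Those nearest PDE_04898 were PDE_01394 (15.8, 1.49 and 18.8 TPM; distance 0.106), PDE_09491, PDE_10002, PDE_07704 and PDE_08154, a match to a transporter of the MFS family, at distances up to 0.203. PDE_09491, at 70.2, 11.0 and 99.7 TPM, directly precedes the pigment oxidase PDE_09492 in number. The members lay at a distance of 3.22 from each other: PDE_04898 was number 166 of 5755 among the genes nearest PDE_01779, and PDE_01779 was number 4491 among those nearest PDE_04898. The distance was not scaled, so it also grows where the size of a change differs. These ranks therefore do not compare the order of the libraries, which is the same in both members.

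Chitin synthesis was represented by 6 rows with chitin synthase activity in Gene Ontology, of which 4 reached 10 TPM. In this list 1 of 4 rows fell in edgeR, beside 3.39% of all genes, and the same row was apart and lower by size, beside 7.82%. PDE_08046, a match to CHS3 of Penicillium digitatum, had 331 tags in M12, 52 in Dmtr23B and 388 in Rmtr23B, or 98.5, 15.5 and 115 TPM. Its Dmtr23B level lay far under both others, with M12 6.35-fold (4.73 to 8.68) and Rmtr23B 7.44-fold (5.56 to 10.1) above it (edgeR adjusted p 0.0283). It was number 7 among the genes nearest PDE_04898 (distance 0.217). That distance comes from the same TPM values as these ratios, so it adds no support for a link between the genes.

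The other synthase rows showed no such difference. PDE_02083, matched to CHS4, stood at 107, 124 and 116 TPM, PDE_01856 at 63.4, 72.5 and 50.6 TPM, and PDE_08662, which also carries myosin terms, at 19.3, 16.7 and 17.0 TPM. Their edgeR adjusted p lay between 0.652 and 0.984. PDE_05710 and PDE_09407 stayed under 10 TPM. Among enzymes that make the precursor, glucosamine-fructose-6-phosphate aminotransferase (PDE_02490), which starts the route, stood at 220, 251 and 181 TPM, N-acetylglucosamine-phosphate mutase (PDE_02624) at 24.1, 25.4 and 20.5 TPM, and UDP-N-acetylglucosamine pyrophosphorylase (PDE_05867), which ends it, at 94.4, 88.0 and 56.6 TPM. None of these 3 was apart in Dmtr23B.

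Among rows for release or use of the chitin sugar, 3 were apart and higher in Dmtr23B by the size rule, and none of these passed edgeR. Beta-N-acetylhexosaminidase (PDE_06511), which cuts chitin fragments to N-acetylglucosamine, stood at 38.1, 135 and 15.5 TPM, a Dmtr23B level 3.54-fold above M12 (2.90 to 4.34) and 8.71-fold above Rmtr23B (6.53 to 11.8), with an edgeR adjusted p of 0.103. Glucosamine-6-phosphate isomerase (PDE_00969), which deaminates the phosphorylated sugar, stood at 32.1, 183 and 10.7 TPM, 5.68-fold (4.62 to 7.04) and 17.0-fold (12.2 to 24.6) higher, with adjusted p of 0.0537 in edgeR and 0.00727 in DESeq2. PDE_00965, which carries N-acetylglucosamine-6-phosphate deacetylase activity in Gene Ontology, stood at 44.6, 136 and 38.1 TPM (edgeR adjusted p 0.149).

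Of the 3 rows matched by name in the list of sugar release and use, 2 were apart and higher; the third, an alpha-N-acetylglucosaminidase (PDE_02100), stood at 165.5, 138 and 107 TPM. By Gene Ontology terms 3 of 4 rows were apart and higher, beside 10.8% of all genes in that direction by size, and the fourth is a ribosomal protein match (PDE_04327). In edgeR 0 rows of either list passed, beside 1.32% of all genes in the higher direction. An unadjusted edgeR p under 0.05 was found in 2 rows matched by name and 3 by Gene Ontology, beside 995 of all 5756 genes. DESeq2 called 1 in each list, PDE_00969, beside 401 of 5756. Of the chitin deacetylation rows 2 of 4 reached 10 TPM and neither was apart, the more abundant being PDE_00647 at 14.9, 35.8 and 21.4 TPM. The chitin binding rows matched by name, PDE_00308 and PDE_03905, stayed under 10 TPM, PDE_03905 with 14, 0 and 7 tags.

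**Figure D5:**
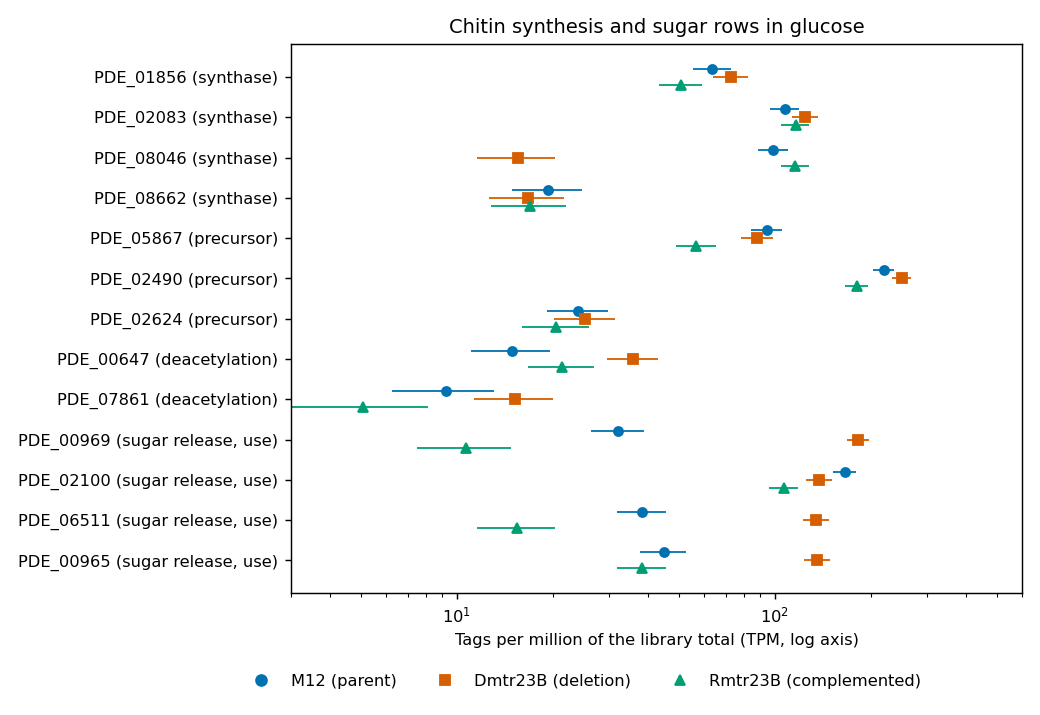
Levels in TPM (log axis, exact 95% counting intervals) of rows for chitin synthases, precursor synthesis, deacetylation and release or use of the sugar that reach 10 TPM in the 3 glucose libraries. Dmtr23B square lies left of both other symbols by more than the intervals at PDE_08046 (15.5 TPM) and right of them at PDE_00969, PDE_06511, PDE_00965 and PDE_00647 (183, 135, 136 and 35.8 TPM).

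Wall glucan, the other main polymer of the wall, was represented by 12 rows, of which 7 reached 10 TPM. Of these 7, 1 was apart and higher and 1 apart and lower, beside 10.8% and 7.82% of all genes. In edgeR 0 passed, beside 4.71%, and 2 had an unadjusted p under 0.05, beside 995 of all 5756 genes. DESeq2 called 0 of the 7, beside 401 of 5756. The beta-1,6-glucanase match PDE_02004 stood at 12.5, 34.6 and 5.66 TPM and the exo-beta-1,3-glucanase match PDE_00310 at 65.2, 29.5 and 67.6 TPM. The glucanosyltransferase matches Gel3 (PDE_03452) and Gel1 (PDE_04618), the latter the most abundant of the list in each library, stood at 14.3, 37.9 and 30.1 TPM and at 514, 441 and 253 TPM. The endo-1,3-beta-glucanase match PDE_02862 stood at 304.5, 123 and 45.5 TPM.

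Most of the sporulation markers that reached 10 TPM were also low in Dmtr23B. Of 7 rows matched by name, 6 reached 10 TPM, and 5 of these 6 fell in edgeR, beside 3.39% of all genes: BrlA, the regulator that starts conidiophore formation (PDE_00087; 304, 18 and 300 tags), and the pigment enzyme matches PDE_04496, PDE_09452, PDE_09453 and PDE_09492, with adjusted p from 0.0179 to 0.0447. The conidial hydrophobin match PDE_00021 did not pass (1587, 1388 and 812 TPM; adjusted p 0.947), and WetA (PDE_08333) had 3, 8 and 5 tags. The list summed to 2781, 1465 and 1980 TPM in M12, Dmtr23B and Rmtr23B, and no marker was at 0 in any library. The hydrophobin match PDE_00021 alone supplied 5330 of 9342, 4653 of 4909 and 2729 of 6653 tags of these sums. The sums therefore do not show the size of the fall in the other rows. The part of sporulating structures in the levels of the chitinases was not tested. By library totals BrlA returned to 89.3 TPM in Rmtr23B beside 90.5 TPM in M12, as PDE_04898 nearly did, whereas PDE_01779 overshot.

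A single transcript, PDE_09832, took 82567 TPM in M12, 2796 TPM in Dmtr23B and 166043 TPM in Rmtr23B, which lowers the TPM of every other gene in the libraries where it is high. The median gene stood 0.38 (log2) above the mean of the others in Dmtr23B by library totals, 0.20 above with this transcript's tags taken from the totals, and 0.02 above after TMM scaling. Relative to the median gene the members' differences are therefore larger than their TPM show: after TMM scaling M12 exceeded Dmtr23B 75.3-fold in PDE_01779 and 8.53-fold in PDE_04898.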

How the data were processed

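Per the labels' protocols, mRNA caught on oligo(dT) beads was made into cDNA, cut by NlaIII at CATG, and tagged with MmeI 17 bp downstream; 35-bp reads were sequenced. The sources used here do not name a mapper, genome build or annotation, nor the handling of strand or of tags shared between genes, so members of gene families such as the chitinases are uncertain to that extent. The authors deposited raw tag counts per gene and, per the file headers, TPM values, which equal the count per 1000000 tags of the library total stated there (largest difference 0.005). No molecular identifiers are mentioned, so intervals and floors cover counting error only. Levels between genes are relative to the library total, not per length.

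Only the 3 glucose libraries were compared. Ratios of libraries have exact binomial 95% intervals and levels exact Clopper-Pearson intervals (scipy 1.17.1). The size rule used TPM + 1, 2-fold and 10 TPM, which is 33.5 to 33.6 tags. edgeR 4.0.16 (quasi-likelihood, TMM, Benjamini-Hochberg, two-sided, threshold 0.05) and, as an alternative, DESeq2 1.42.0, in R 4.3.3, set Dmtr23B against M12 and Rmtr23B, pooled as carriers of mtr23B; the spread comes from these 2 and mixes strain, culture and technical differences, and Dmtr23B is assumed to have the same spread. edgeR called 76 genes higher and 195 lower of 5756. "Fell" refers to this test. The edgeR script was run on simulated counts in which both strains with mtr23B shared the same means. In these data M12 and Rmtr23B differ, so that run does not give the error rate here. Lists were drawn by words in the best match and, added later, by Gene Ontology and KEGG terms. The members, lists and named genes (all chitinase rows, list rows apart or past the test and the most abundant of each list, 3 locus numbers each side, the 5 nearest profiles, sporulation markers) were chosen with earlier results of these data known. No sequences were used: the RefSeq table of another strain holds none of the PDE identifiers.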

Additional observations from a re-analysis of the deposited data

How the results depend on the processing

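Both members stayed lower in Dmtr23B under each scaling tried. For PDE_04898 M12 exceeded Dmtr23B 8.53-fold with TMM and 8.60-fold with median-ratio size factors, and Rmtr23B exceeded it 12.2-fold, 12.4-fold and, without the tags of PDE_09832 in the totals (chosen after seeing the data), 10.6-fold. The ratios of PDE_01779 stayed within their counting intervals. Of the other chitinase rows, 2 of 5 were apart with TMM and with median-ratio size factors. With a minimum of 30 TPM 0 of 3 were apart, and with TPM + 5 0 of 5. With M12 left out 1 of 5 was apart, and with Rmtr23B left out 3 of 4, beside 36.9% and 24.8% of all genes. The share over all genes was not computed under the other settings. Of the chitin and glucan rows named in the best match, 4 of 13 were apart (3 higher and 1 lower), beside 18.6% of all genes, and 6 to 7 when M12 or Rmtr23B was left out, beside 36.9% and 24.8%. Small differences of synthase and precursor rows change sign with the scaling, since the median gene moves by 0.38. Without a filter edgeR called 602 genes (181 higher, 421 lower); DESeq2 called 76 higher and 325 lower. Leaving a library out of edgeR leaves no spread to test with. No paired analysis was possible because each strain has 1 library. The 3 tags of PDE_01779 in Dmtr23B limit its ratios.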

Other observations

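The KEGG pathway of amino sugar and nucleotide sugar metabolism, to which both members belong, held 96 rows, of which 62 reached 10 TPM. Without the members, 10 of 60 were apart and higher in Dmtr23B and 5 apart and lower, beside 10.8% and 7.82% of all genes. In edgeR 2 rose and 1 fell, beside 1.32% and 3.39% of all genes, the last being the CHS3 match PDE_08046 (adjusted p 0.0283). The 2 that rose were the glycosidase-annotated rows PDE_01280, at 6.85, 68.3 and 4.17 TPM in M12, Dmtr23B and Rmtr23B (adjusted p 0.0179), and PDE_09532, at 9.52, 49.5 and 9.82 TPM (adjusted p 0.0487).

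PDE_00965 and PDE_00969, the deacetylase and deaminase rows of N-acetylglucosamine use, have close locus numbers, and the rows between and beside them were looked at after their values were seen. PDE_00968, a betaine aldehyde dehydrogenase match, stood at 5.06, 15.5 and 4.46 TPM, PDE_00970, annotated with glycosidase and N-acetyltransferase activity, at 48.5, 96.4 and 57.4 TPM, and PDE_00966, annotated with choline dehydrogenase activity, at 114.6, 186.5 and 105 TPM. PDE_00967 had 22, 6 and 34 tags, the opposite order, and PDE_00963 stood at 18.2, 16.1 and 16.1 TPM. PDE_00964, directly before PDE_00965, stood at 14.6, 34.3 and 15.8 TPM. Its differences from M12 and Rmtr23B by library totals were 1.18 and 1.07 (log2 of TPM + 1), close to the 2-fold limit. By these totals the median gene stood 0.38 above the mean of the others in Dmtr23B. By the size rule PDE_00964 and PDE_00968 were apart on the higher side and PDE_00967 on the lower, beside 10.8% and 7.82% of all genes. None of these rows passed edgeR.

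The WSC domain match PDE_03292, 1 of 5 rows annotated with chitin binding, had 11, 4 and 11 tags, and PDE_01779 is 1 of those 5 and the most abundant of them in Rmtr23B. The 5 rows annotated with fungal-type wall chitin synthesis all reached 10 TPM and none was apart; besides the 2 precursor enzymes they include matches to 14-3-3 proteins (PDE_02544 and PDE_05280) and the row PDE_00736.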
